A study of Homo sapiens with 6 samples.

Results

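Mitochondrial ribosomal proteins are the protein subunits of the ribosome inside mitochondria. They were taken here as every probe set whose only annotated gene symbol starts with MRPL or MRPS and a digit, with pseudogenes and antisense RNAs left out. This gave 140 of 54613 non-control probe sets, for 75 genes, 48 named MRPL and 27 named MRPS. 38 genes had 1 probe set and 37 had several, up to 5. Expression was measured on 6 Affymetrix Human Genome U133 Plus 2.0 arrays in K562, an established human leukemia line of chronic myeloid origin. 4 arrays came from KCTCF-D11 cells, which stably carry a pCDNA vector for CTCF, a zinc finger DNA-binding protein found at insulators, and 2 from KpCDNA cells, which stably carry the empty vector. No further treatment was given, so the arrays compare K562 cells with and without extra CTCF. The CTCF cells are 1 named transfectant, so the effects of CTCF and of that line of cells cannot be told apart. Nothing in the labels says that arrays came from separate cultures, so every p-value here rests on array-to-array spread, which may be technical.

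The mitoribosome translates the few messages of the mitochondrial genome, all of which encode subunits of the respiratory chain and ATP synthase. Its RNAs come from mitochondrial DNA, while all of its proteins are encoded in the nucleus, made in the cytosol and imported. It descends from a bacterial ribosome: many of its proteins have a bacterial homolog, and others are found only in mitochondria. The large subunit holds the peptidyl transferase centre and the exit tunnel, and the small subunit holds the decoding centre.

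CTCF itself had 1311, 1614, 1332 and 1332 in CTCF arrays 1 to 4, against 457 and 634 in empty vector arrays 1 and 2, in units of deposited intensity. The log2 change was 1.29 ± 0.16 (SE; limma adjusted p = 0.0288). The arrays formed 2 sets on 45 bacterial and phage spike-in probe sets. The smaller set held CTCF array 4 and empty vector array 1, and the larger set held CTCF arrays 1, 2 and 3 and empty vector array 2. For ACTB, a measure of RNA integrity, the log2 signal of the 3' probe set exceeded that of the 5' probe set by 0.91 (CTCF) and 0.81 (empty vector) on the smaller set's arrays, and by 0.22 to 0.28 on those of the larger. For GAPDH, a second such measure, the difference was -0.15 to -0.11 over all arrays and alike in both sets. Each fit had the array set, read from the spike-in probe sets, as a block, and within-set differences are given beside it. The 7 erythroid and K562 markers with a probe set of their own had 743 to 11367 over the arrays. Of other markers, CD3D, EPCAM and KRT19 had 444 to 2139, while MS4A1, CD3E, CD2 and CDH1 had 1.01 to 54.3.

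Mitoribosomal protein transcripts were mostly higher in CTCF cells, by small amounts, and 1 probe set passed the test. Changes are coefficients of log2(value + 16), CTCF over empty vector, ± SE, and "rose" or "fell" means a Benjamini-Hochberg adjusted p under 0.05 over all probe sets in limma. MRPL1 rose, and no member fell. This is 1 of 140 probe sets, against 1.86% of all probe sets called, 0.538% higher and 1.32% lower, a share of 0.714% near the background. Without the block 0 of 140 passed, against 0.011% of all probe sets. The median change of the members was 0.24, against -0.02 for all probe sets. 108 of 140 members, or 77.1%, had a change above 0, against 46.8% of all probe sets. In 49 members every CTCF array lay above both empty vector arrays, a share of 35.0%, against 6.06% of all probe sets. The opposite held in 6 members, or 4.29%, against 7.18% of all probe sets. At an unadjusted p under 0.05, 38 members were higher and 1 was lower, 27.1% and 0.714%, against 7.43% and 10.2% of all probe sets. A higher level of at least 1.5-fold was fitted for 25 members, or 17.9%, against 3.86% of all probe sets, and a lower level of that size for 0 members, against 6.48%. In bulk RNA a higher level in every cell and a larger share of cells with a high level cannot be told apart.

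**Figure D1:**
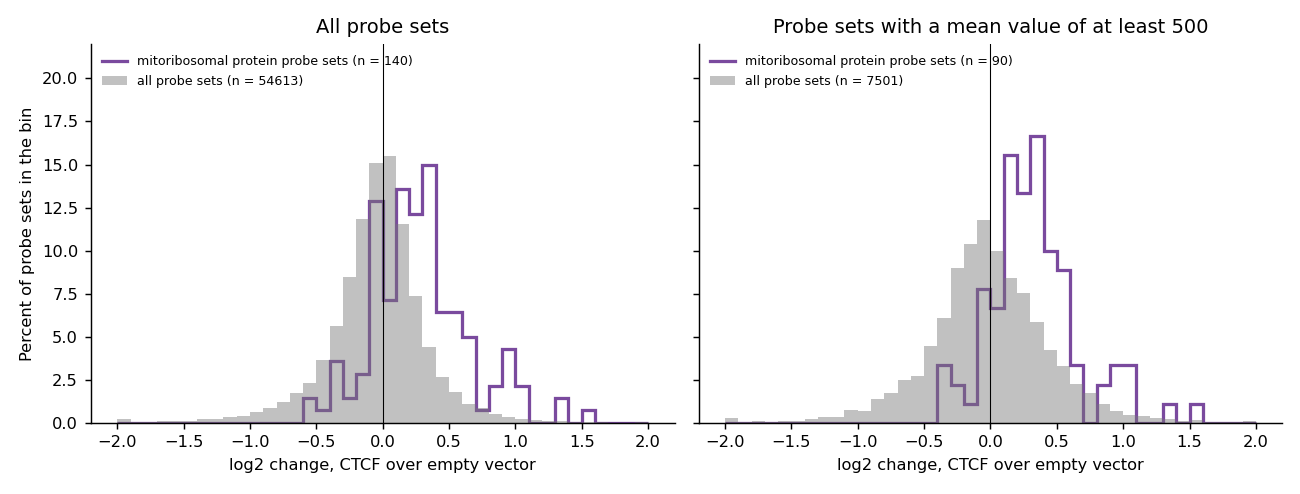
Share of probe sets (percent) in bins of 0.1 of the log2 change, CTCF over empty vector, for mitoribosomal proteins (purple line) and all probe sets (grey), with changes beyond 2 placed in the outer bins. The members are shifted to the right of 0 both over all levels (median 0.24, against -0.02) and among probe sets with a mean value of at least 500 (median 0.30, against -0.03).

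Members had high signals: the median of their mean values was 911, against 36.2 for all probe sets, and 72 of 75 genes had a probe set with a mean of at least 500. Signals of different probe sets are not RNA levels on 1 scale, and this cut was chosen after the values were seen. Of the 90 members at or above it, 77 had a change above 0 and the median was 0.30. All probe sets at that level had a median of -0.03. Every CTCF array lay above both empty vector arrays in 42 of these 90, or 46.7%, against 18.7% of all probe sets at that level. At an unadjusted p under 0.05, 34.4% of these members were higher and 1.11% lower, against 17% and 16.4% of all probe sets at that level. The 50 dimmer members had a median of 0.11, and 7 of them, or 14.0%, separated the groups upward, against 4.05% of all probe sets under that level, whose median was -0.02.

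The size of the shift differed between arrays. Against empty vector array 2, the median difference of the members was 0.09 for CTCF array 1, 0.46 for CTCF array 2 and 0.36 for CTCF array 3. In the smaller set, the median difference of CTCF array 4 from empty vector array 1 was 0.19. Medians over all probe sets lay between -0.04 and 0 in these 4 pairs. The signal of a thr spike-in, a bacterial control RNA, was 454, 853, 769 and 112 on CTCF arrays 1 to 4, against 85.2 and 455 on empty vector arrays 1 and 2. In the larger set it was thus higher on the CTCF arrays with the larger shifts and level on CTCF array 1, and its part in the shift was not tested. CTCF array 1 lay below both CTCF arrays 2 and 3 in 115 members, or 82.1%, against 36.3% of all probe sets. A difference above 0 within both array sets was seen in 92 members, or 65.7%, against 28.3% of all probe sets, and a difference below 0 within both in 17 members, or 12.1%, against 32.4%. The summed member signal was 0.810%, 1.00%, 1.01% and 0.789% of the summed signal of CTCF arrays 1 to 4, against 0.672% and 0.730% in empty vector arrays 1 and 2.

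**Figure D2:**
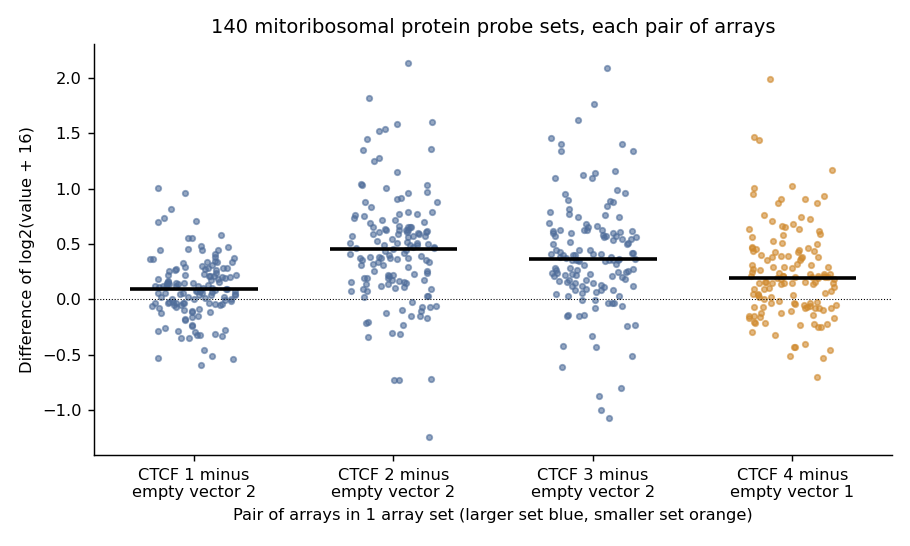
Difference of log2(value + 16) between a CTCF array and the empty vector array of its set, for each of the 140 member probe sets (points), with the median as a black line. The medians are 0.09, 0.46, 0.36 and 0.19 from left to right, and CTCF array 1 stays closest to its empty vector array.

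MRPL1, the L1 stalk protein that borders the exit site for spent tRNA, had the highest change of all members. Its probe set (223154_at) had 934, 1362, 1289 and 1123 in CTCF arrays 1 to 4, against 271 and 459 in empty vector arrays 1 and 2. Every CTCF value was above both empty vector values, with CTCF array 1 the lowest of its group. The change was 1.60 ± 0.23, a 3.02-fold rise (adjusted p = 0.0404), with differences of 1.33 in the larger and 1.99 in the smaller array set. The call ended without the block (adjusted p = 0.242) and when CTCF array 2, 3 or 4 or either empty vector array was left out, with adjusted p of 0.138 to 0.398. Without CTCF array 1 it had an adjusted p of 0.0435.

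The other high changes belonged to proteins of both subunits, and none of them passed. MRPL28 and MRPL19, bacterial-type proteins of the large subunit, had 807, 985, 921 and 1064 and 956, 1371, 1274 and 1091 in CTCF arrays 1 to 4. In empty vector arrays 1 and 2, MRPL28 had 382 and 545 and MRPL19 had 573 and 569. Neither gene had overlapping groups, and the 2 empty vector values of MRPL19 were nearly equal. Their changes were 1.00 ± 0.20 (adjusted p = 0.0710) and 0.99 ± 0.18 (adjusted p = 0.0611). MRPL50, a large-subunit protein found only in mitochondria, had 486, 946, 1015 and 419 in CTCF arrays 1 to 4 on 225580_at, against 142 and 319 in empty vector arrays 1 and 2. A brighter probe set of MRPL50, 225581_s_at, had 1038, 1809, 1797 and 1412, against 764 and 700. Both separated the groups, with changes of 1.33 ± 0.32 (adjusted p = 0.106) and 1.00 ± 0.26 (adjusted p = 0.128).

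In the small subunit, MRPS12, which lies at the decoding centre, had 197, 517, 499 and 127 in CTCF arrays 1 to 4 on 210008_s_at. The empty vector arrays had 60.4 and 105. All CTCF values were above both, but CTCF arrays 2 and 3 were far above arrays 1 and 4, and the change was 1.37 ± 0.44 (adjusted p = 0.181). The brightest MRPS12 probe set, 204331_s_at, overlapped between groups: CTCF array 4 of the smaller set had 786, against 1011 in empty vector array 2 of the larger set, and the change was 0.81 ± 0.23 (adjusted p = 0.144). MRPS17, a small-subunit protein that binds the ribosomal RNA, had 1175, 2305, 2230 and 1334 in CTCF arrays 1 to 4, against 656 and 835 in empty vector arrays 1 and 2. MRPS7, of the head of the small subunit, had 791, 1256, 1238 and 713, against 362 and 481. Both separated the groups, with changes of 1.07 ± 0.30 (adjusted p = 0.146) and 1.06 ± 0.23 (adjusted p = 0.0832). MRPS28, also of the small subunit, had 1003, 1843, 1650 and 867 in the CTCF arrays and 417 and 750 in the empty vector arrays, also without overlap, and a change of 0.97 ± 0.26 (adjusted p = 0.135).

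**Figure D3:**
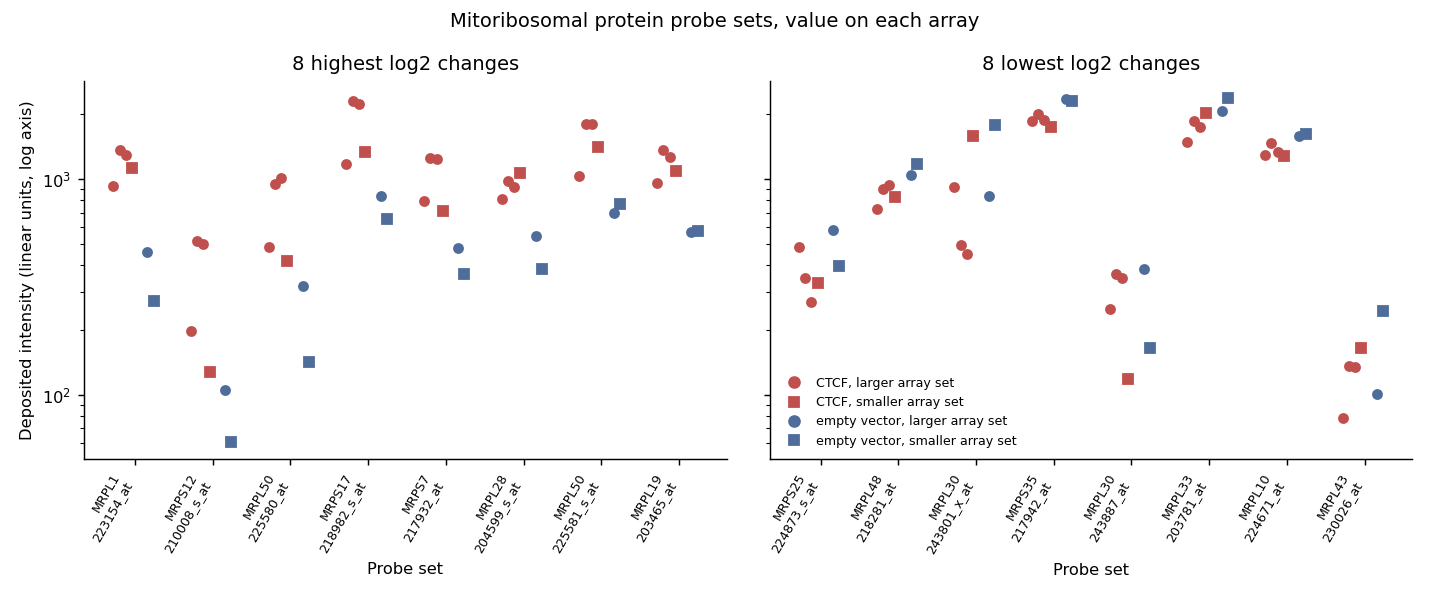
Deposited intensity on each array (log axis) of the member probe sets with the 8 highest (left) and the 8 lowest (right) changes among those brighter than the median of all probe sets. CTCF arrays are red and empty vector arrays blue, with squares for the smaller array set. On the left every CTCF value lies above both empty vector values, and on the right MRPL48, MRPS35, MRPL33 and MRPL10 show the opposite.

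The promoters of the 4 genes with the highest changes are shown because these genes lead the members in size of change, though MRPL1 alone passed the test. They run from 250 bases before to 50 after the start in RefSeq's annotation of GRCh38.p14, in the direction of the gene. Capitals mark matches, on either strand, to the ETS letters CCGGAAG or the YY1 letters AAGATGG, and the E-box CACGTG, the NRF1 letters GCGCATGC and the CTCF letters AGGGGGCGC were searched too. ETS and YY1 matches can share their AAG. MRPL1 lies at chr4:77862580-77862879 (plus strand), MRPS12 at chr19:38930694-38930993 (plus), MRPL50 at chr9:101398569-101398868 (minus) and MRPS17 at chr7:55951627-55951926 (plus).
MRPL1: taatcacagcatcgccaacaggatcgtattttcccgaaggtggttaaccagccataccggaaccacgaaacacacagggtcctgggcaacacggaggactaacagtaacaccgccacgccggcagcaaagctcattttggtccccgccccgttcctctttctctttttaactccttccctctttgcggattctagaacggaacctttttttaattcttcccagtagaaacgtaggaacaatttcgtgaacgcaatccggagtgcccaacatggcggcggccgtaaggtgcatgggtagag
MRPS12: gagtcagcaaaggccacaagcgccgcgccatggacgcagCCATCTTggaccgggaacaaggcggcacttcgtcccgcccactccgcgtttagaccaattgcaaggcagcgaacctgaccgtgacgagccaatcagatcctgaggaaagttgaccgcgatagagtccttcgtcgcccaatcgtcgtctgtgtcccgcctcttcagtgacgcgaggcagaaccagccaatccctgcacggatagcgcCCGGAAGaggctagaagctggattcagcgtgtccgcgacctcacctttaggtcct
MRPL50: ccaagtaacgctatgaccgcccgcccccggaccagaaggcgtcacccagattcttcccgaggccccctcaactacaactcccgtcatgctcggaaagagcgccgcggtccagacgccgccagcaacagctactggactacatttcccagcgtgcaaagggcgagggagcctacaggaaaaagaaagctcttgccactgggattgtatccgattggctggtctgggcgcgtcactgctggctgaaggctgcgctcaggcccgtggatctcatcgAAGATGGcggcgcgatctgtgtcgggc
MRPS17: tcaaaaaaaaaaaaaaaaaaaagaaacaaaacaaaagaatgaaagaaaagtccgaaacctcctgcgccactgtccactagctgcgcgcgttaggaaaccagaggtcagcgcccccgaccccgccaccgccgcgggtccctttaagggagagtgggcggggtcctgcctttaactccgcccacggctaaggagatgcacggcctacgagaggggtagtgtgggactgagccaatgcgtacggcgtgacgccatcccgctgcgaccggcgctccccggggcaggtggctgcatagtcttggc
MRPS12 had an ETS match starting at position -5 and a YY1 match at -211 from the start, and MRPL50 a YY1 match at position 24. These windows of MRPL1 and MRPS17 held no match to any of the 5 strings of letters searched, and other forms of the ETS and YY1 motifs were not searched.

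Over the 67 member genes with a promoter entry, ETS letters were in 28 and YY1 letters in 22, or 41.8% and 32.8%, against 14.2% and 6.40% of 15843 protein-coding promoters of the same length. The E-box was in 8.96% of member promoters, against 8.88%, the NRF1 letters in 8.96%, against 4.26%, and the CTCF letters in 1.49%, which is 1 promoter, against 2.52%. These counts turn on the letters chosen: with a longer NRF1 motif of 10 letters the shares were 1.49%, against 1.75%, and with a longer CTCF motif of 12 letters 4.48%, against 2.70%. Changes of members with and without a match were read by the brightest probe set of each gene. The median was 0.30 with and 0.36 without ETS letters, 0.34 with and 0.30 without YY1 letters, and 0.32 with and 0.33 without an E-box. It was 0.24 with and 0.33 without the NRF1 letters, in 6 and 61 genes, and -0.03 in the 1 gene with the CTCF letters, against 0.33 without. A match is a description of letters and not a bound site. 18 of the 67 genes, or 26.9%, had a protein-coding gene starting within 1000 bases in the opposite direction, against 10.3% of protein-coding promoters. Among these pairs MRPL46 and MRPS11 face each other at 320 bases, with changes of 0.68 ± 0.21 and 0.38 ± 0.22 on their brightest probe sets (adjusted p = 0.171 and 0.438). SARS2, the mitochondrial seryl-tRNA synthetase that starts 181 bases from MRPS12, had a change of 0.13 ± 0.14 (adjusted p = 0.720). Of 15 measured neighbours that are not members, 0 rose and 0 fell, against 0.538% and 1.32% of all probe sets. 11 of the 15 had a change above 0, against 46.8% of all probe sets. Their median was 0.29, beside 0.30 for the members they face and -0.02 for all genes, read by 1 probe set each.

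In the large subunit, 88 probe sets of 50 genes had a median change of 0.30, with 0.37 in the larger and 0.20 in the smaller array set. MRPS18A and MRPS30 are counted here, since their proteins sit in the large subunit. 32 of the 88, or 36.4%, had every CTCF array above both empty vector arrays, against 6.06% of all probe sets. The opposite held in 5, or 5.68%, against 7.18%. Among all probe sets with a mean of at least 500 the 2 shares were 18.7% and 19.1%. MRPL3, which reaches toward the peptidyl transferase centre, was among the members with the highest signal, with 3726, 4071, 3893 and 3833 in CTCF arrays 1 to 4, against 3096 and 2938 in empty vector arrays 1 and 2. Its groups did not overlap, and its spread within groups was small (change 0.37 ± 0.12, adjusted p = 0.178). MRPL21, a bacterial-type protein, had 3732, 3854, 3904 and 3379 in the CTCF arrays, against 2752 and 3051 in the empty vector arrays, again without overlap (0.31 ± 0.11, adjusted p = 0.218). MRPL42, specific to mitochondria, had 3057 to 3573 in the CTCF arrays, against 2951 and 3000, a change of 0.13 ± 0.12.

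The stalk that recruits translation factors is built from MRPL10 and copies of MRPL12, and these genes had changes of opposite sign. MRPL12, which has also been described to bind the mitochondrial RNA polymerase, had 1363, 1633, 1509 and 779 in CTCF arrays 1 to 4, against 511 and 1128 in empty vector arrays 1 and 2. The groups overlapped across sets and not within them, with differences of 0.40 in the larger and 0.59 in the smaller set and a change of 0.48 ± 0.13 (adjusted p = 0.141). MRPL10 had 1290, 1465, 1342 and 1285 in the CTCF arrays, against 1614 and 1581 in the empty vector arrays, all CTCF values being lower (-0.26 ± 0.12, adjusted p = 0.353). MRPL44, which has a ribonuclease III fold, had 308, 493, 516 and 227, against 138 and 233, and overlapped between groups at CTCF array 4 (0.76 ± 0.24, adjusted p = 0.172). MRPL45, which sits at the exit tunnel and ties the ribosome to the inner membrane, had 1148, 1042, 1059 and 1032 in the CTCF arrays, against 1149 and 1170 in the empty vector arrays. Its groups were separate by a margin of about 1 unit, and the change was -0.13 ± 0.12 (adjusted p = 0.643).

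In the small subunit, 52 probe sets of 25 genes had a median change of 0.15, with 0.16 in the larger and 0.19 in the smaller array set, and 17, or 32.7%, had every CTCF array above both empty vector arrays, against 6.06% of all probe sets. In 1, or 1.92%, it was the other way, against 7.18%. The shares of all probe sets with a mean of at least 500 were again 18.7% and 19.1%. The difference in median between the subunits was not tested. The MRPS probe sets with the highest signal had small changes. MRPS15 had 3156, 3682, 3612 and 3732 on 226296_s_at in CTCF arrays 1 to 4, against 3356 and 2965 in empty vector arrays 1 and 2 (0.20 ± 0.13). MRPS33, specific to mitochondria, had 2019, 2637, 2704 and 2576, against 2775 and 2468 (-0.05 ± 0.16), and the groups of both genes overlapped. MRPS27, a protein of the pentatricopeptide repeat type, had 2041, 2034, 1883 and 1445, against 1674 and 1931 (-0.06 ± 0.12), also with overlap.

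3 members are paralogs of bacterial S18, and none passed the test. MRPS18C had 1630, 2224, 2059 and 1718 on its brightest probe set in CTCF arrays 1 to 4, against 1311 and 1350 in empty vector arrays 1 and 2, with no overlap (0.47 ± 0.16, adjusted p = 0.216). MRPS18B had 3738, 3284, 3292 and 3327, against 3007 and 3229, a separation of small size (0.11 ± 0.12, adjusted p = 0.717). MRPS18A had 725, 1038, 1015 and 513, against 459 and 666, with overlap across sets (0.33 ± 0.19, adjusted p = 0.455). Differences among the 3 paralogs were not tested.

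A few members were lower in CTCF cells, and none passed. MRPL48, specific to mitochondria, had 727, 897, 939 and 826 in CTCF arrays 1 to 4, against 1181 and 1043 in empty vector arrays 1 and 2 (-0.38 ± 0.15, adjusted p = 0.284). MRPS35, a mitochondria-specific protein of the small subunit, had 1855, 2005, 1877 and 1745, against 2310 and 2363 (-0.34 ± 0.11, adjusted p = 0.199), the only member lower at an unadjusted p under 0.05. MRPL33, a small bacterial-type protein, had 1494, 1853, 1742 and 2028, against 2375 and 2063 (-0.26 ± 0.14, adjusted p = 0.402). In these genes, as in MRPL10, every CTCF value was below both empty vector values. MRPS25 on 224873_s_at had 485, 348, 270 and 329, against 395 and 583, with overlap (-0.51 ± 0.25, adjusted p = 0.377). Its brightest probe set, 224869_s_at, ran the other way, with 1188, 1282, 1332 and 1298, against 963 and 906 (0.46 ± 0.12, adjusted p = 0.121). MRPL30 had changes of -0.33 ± 0.19 on 243887_at and -0.36 ± 0.31 on 243801_x_at, and MRPL43 of -0.13 ± 0.27 on 230026_at. The other 3 probe sets of MRPL30 had changes of -0.06, 0.16 and 0.17, and the other 2 of MRPL43 had 0.34 and, with the highest signal, 0.63 ± 0.31.

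**Figure D4:**
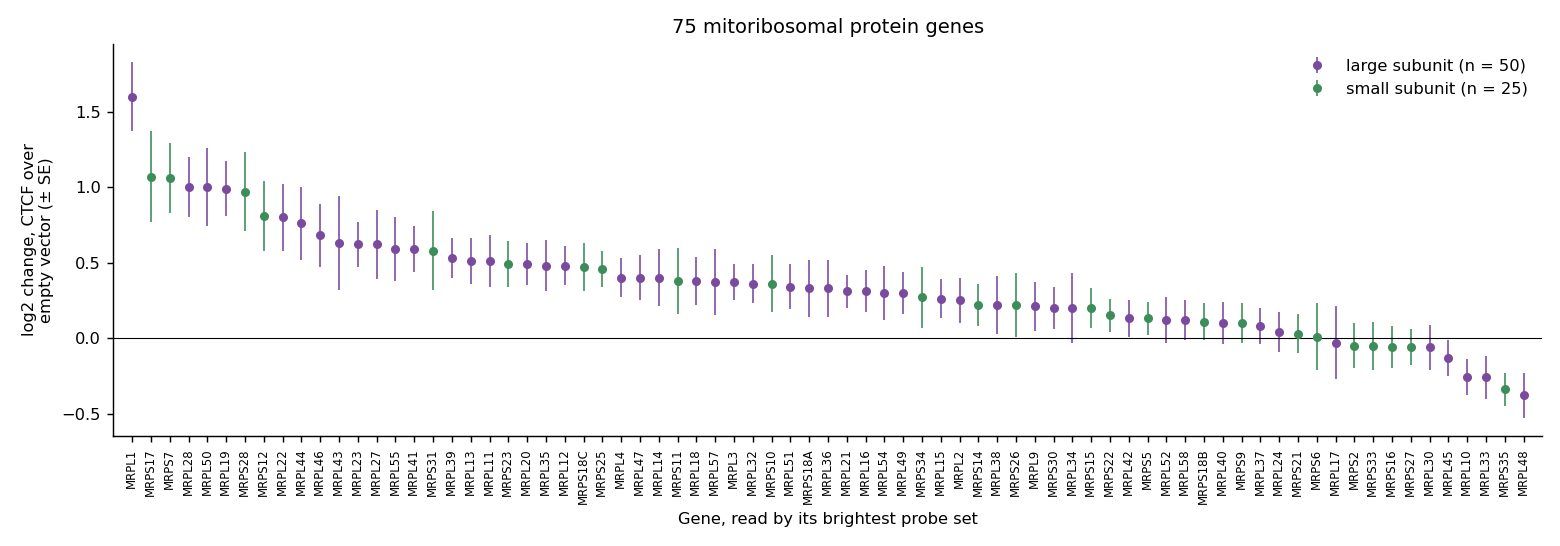
log2 change, CTCF over empty vector, of the 75 genes, each read by its brightest probe set, with the SE as bars and the subunit by colour. The genes run from MRPL1 at 1.60 to MRPL48 at -0.38, and 64 of 75 lie above 0.

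Probe sets of 1 gene did not always move alike: in 21 of the 37 genes with several, changes of both signs occurred. The widest such gaps were those of MRPS12 (1.37 and -0.09), MRPL23 (0.62 and -0.56), MRPL39 (0.53 and -0.49) and MRPL19 (0.99 and -0.02). In each of these genes the negative value came from a dim probe set. That of MRPL23, at the exit tunnel, had 2.49 to 25.4 in the CTCF arrays, against 27.7 and 32.8 in the empty vector arrays, while 213897_s_at had 950 to 1342, against 589 and 803. For MRPL39 the dim probe set had 5.92 to 17.8, against 7.5 and 32.9, and the bright one 1474 to 1780, against 1145 and 1159. Dim MRPS12 and MRPL19 probe sets had 11.2 to 34.4 and 33.7 to 74.4 in the CTCF arrays, against 21.4 and 24.3 and 32.9 and 62.9 in the empty vector arrays. With 1 probe set per gene, the brightest, 64 of 75 genes had a change above 0, and the median was 0.33. 35 genes, or 46.7%, separated the groups upward and 5, or 6.67%, downward, against 6.06% and 7.18% of all probe sets. Most of these brightest probe sets had a mean over all 6 arrays of at least 500, and among all probe sets at that level the shares were 18.7% and 19.1%. The 4 probe sets of MRPS22 (changes of 0.14 to 0.17) and 243801_x_at of MRPL30 are of the type that may read other transcripts. So are the probe sets that read MRPL35, MRPS10 and MRPL51 in the count by gene, with changes of 0.48, 0.36 and 0.34. MRPL41, MRPL44, MRPL50 and MRPL57 also had probe sets of this type, none of them the brightest of its gene.

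By origin, the 81 probe sets for the 46 genes with a bacterial homolog had a median change of 0.26, and the 59 for the 29 genes specific to mitochondria had 0.20, a difference that was not tested. The genes lie on 21 chromosomes, with at most 8 on any of them (chromosomes 1 and 17).

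In the authors' deposited table, 7 members were listed, all higher in the CTCF arrays, or 5.00% of members, against 0.569% of all probe sets listed as higher and 0.837% as lower. The authors' deposited table was selected on the lower bound of the fold change and the difference of means in these same arrays. It required a difference of means of at least 90, while the median of the mean values was 911 for members and 36.2 for all probe sets. The shares were thus not matched for signal. The authors' deposited table gives fold changes of 3.95 for MRPS12, 3.17 for MRPL1, 3.12 and 2.10 for MRPL50, 2.35 for MRPS17, 2.32 for MRPS7 and 2.06 for MRPL19. The lower bounds in the authors' deposited table run from 1.59 for a MRPL50 probe set to 2.13 for MRPL1.

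Other parts of mitochondrial gene expression were examined through lists of known genes. Among 39 probe sets of 16 mitochondrial translation factors, 5 rose and 0 fell, 12.8% called, against 1.86% of all probe sets, and the median change was 0.30. GFM1, elongation factor G1, which moves the ribosome along the message, had 1417, 1627, 1464 and 1266 on 225161_at in CTCF arrays 1 to 4, against 669 and 831 in empty vector arrays 1 and 2. The groups were far apart relative to their spread, and GFM1 rose by 0.87 ± 0.12 there (adjusted p = 0.0392) and by 1.08 ± 0.17 on 232296_s_at (adjusted p = 0.0454). TSFM, which recharges elongation factor Tu, had 1007, 1006, 886 and 964, against 530 and 580, and rose by 0.77 ± 0.12 (adjusted p = 0.0489). GUF1, a ribosome-binding GTPase, rose by 1.10 ± 0.15 (adjusted p = 0.0381), and MTRF1, of the release factor family, rose by 0.95 ± 0.16 (adjusted p = 0.0498) on the dim 242996_at, with values of 27.0 to 89.8, against 9.84 and 28.2. The other MTRF1 probe sets had changes of -0.17 ± 0.12 on 219822_at, the brightest, and 0.13 ± 0.17 on 244763_at. The other probe sets, none called, had -0.25, 0.28, 0.69 and 0.79 for GFM1, 0.15 and 0.83 for TSFM and 0.75 for GUF1. On their called probe sets, the groups of GUF1 and MTRF1 overlapped across array sets. TUFM, elongation factor Tu itself, had 2908 to 3574 in the CTCF arrays, against 2771 and 3137 (0.11 ± 0.11), and MTIF3, an initiation factor, had -0.40 ± 0.13 on its brighter probe set (adjusted p = 0.192). Without the array set block none of the 5 probe sets that rose passed in limma, with adjusted p of 0.304 to 0.839.

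Among 33 probe sets of 15 mitochondrial aminoacyl-tRNA synthetases, 2 rose and 0 fell, against 0.538% and 1.32% of all probe sets, with a median of 0.13. LARS2, for leucine, rose by 0.92 ± 0.14 (adjusted p = 0.0454), with 571, 706, 692 and 323 in CTCF arrays 1 to 4, against 151 and 353 in empty vector arrays 1 and 2. EARS2, for glutamate, rose by 0.76 ± 0.11 (adjusted p = 0.0441), with 157, 155, 146 and 45, against 22.1 and 80.5. Other probe sets had 0.40 ± 0.18 for LARS2, and 1.30 ± 0.26, 0.89 ± 0.19 and -0.23 ± 0.21 for EARS2, none called. On the called probe set of both, CTCF array 4 lay below empty vector array 2 of the other set, and neither passed without the block (adjusted p = 0.690 and 0.882). The lists for mitoribosome assembly (74 probe sets, median 0.16), mitochondrial transcription and RNA processing (42, median 0.32) and import and chaperones (42, median 0.19) had 0 that rose and 0 that fell in limma. At an unadjusted p under 0.05, 24, 18 and 13 of their probe sets were higher and 3, 1 and 2 lower. These are 32.4%, 42.9% and 31.0% higher and 4.05%, 2.38% and 4.76% lower, against 7.43% and 10.2% of all probe sets. Among all probe sets with a mean of at least 500, 17% were higher and 16.4% lower, and these lists were not split by signal. The mitoribosomal proteins DAP3, PTCD3, CHCHD1 and GADD45GIP1, which carry other symbols, had 11 probe sets with a median of -0.04 and no call in limma. Their median was 0.06 within the larger array set, 0.11 within the smaller set and 0.24 without the block. On the brightest probe set of each gene the change was 1.13 for GADD45GIP1, 0.25 for CHCHD1, 0.18 for PTCD3 and -0.13 for DAP3. 1 of the 11 probe sets, or 9.09%, was higher at an unadjusted p under 0.05 (GADD45GIP1, 1.13 ± 0.23), near the 7.43% of all probe sets. The 25 probe sets of 9 regulators of mitochondrial biogenesis had a median of -0.09 and 0 calls in limma. At an unadjusted p under 0.05, 3 were higher and 3 lower, 12% each, near the 7.43% and 10.2% of all probe sets.

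Neither the proteins of the cytosolic ribosome nor those of the respiratory chain had a median as far above 0. The 112 probe sets of cytosolic ribosomal proteins had a median of 0, 0 that rose and 1 that fell. In 5.36% every CTCF array lay above both empty vector arrays, against 35.0% of the mitoribosomal members and 6.06% of all probe sets. In 5.36% every CTCF array lay below both, against 7.18% of all probe sets. The 152 probe sets of oxidative phosphorylation subunits encoded in the nucleus had a median of 0.06, 1 that rose and 1 that fell. Every CTCF array lay above in 11.8% of them and below in 10.5%. Among all probe sets with a mean of at least 500 it lay above in 18.7% and below in 19.1%. Of all probe sets, 0.538% rose and 1.32% fell. The oxidative phosphorylation list was taken by gene symbol and also holds associated factors such as COX7A2L and ATP5IF1. The probe sets called were RPL37, of the large cytosolic subunit (-1.0 ± 0.16, adjusted p = 0.0474), COX7A2L, a factor of respiratory supercomplexes (-0.72 ± 0.11, adjusted p = 0.0483), and ATP5IF1, the inhibitor of ATP synthase (1.23 ± 0.19, adjusted p = 0.0471). Their groups were separate for COX7A2L, with 2453 to 2660 in the CTCF arrays, against 4023 and 4346 in the empty vector arrays, and overlapped for RPL37 and ATP5IF1. Other probe sets of these genes had 0.02, -0.50 and -0.68 for RPL37 and 0.09 and 0.10 for ATP5IF1, none called. Differences between lists were not tested.

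**Figure D5:**
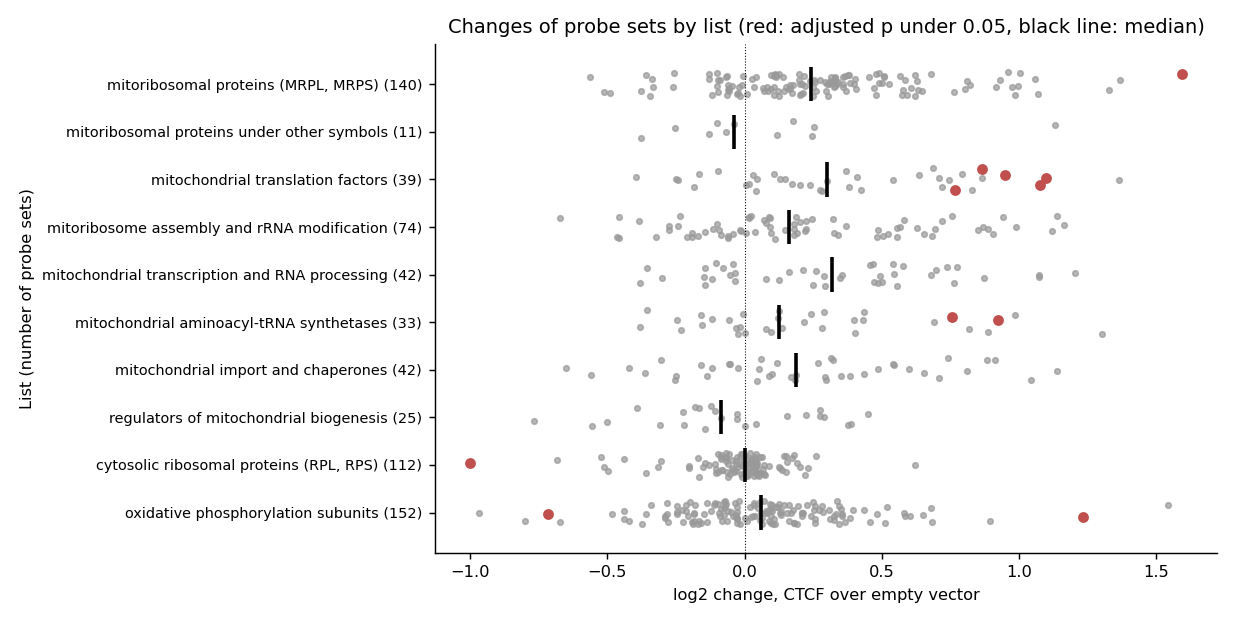
log2 change, CTCF over empty vector, of each probe set (points) in the mitoribosomal proteins, 7 lists of mitochondrial genes and 2 comparison lists, with the number of probe sets in brackets, the median as a black line and calls in red. The median is 0.24 for mitoribosomal proteins, 0.30 for translation factors and 0 for cytosolic ribosomal proteins.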

How the data were processed

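RNA was labelled with biotin and hybridised to the arrays, per the labels' protocols. The deposited value table holds 1 linear intensity per probe set and array from the authors' own processing, whose software and normalization no source used here gives. The fold changes and group means in the authors' deposited table are scores of their own comparison, selected on a lower bound of fold change of at least 1.5 and a difference of means of at least 90, per the file headers.

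Values were used with no further scaling, as log2(value + 16), in limma 3.58.1 (R 4.3.3; lmFit and eBayes, 2-sided) over 54613 probe sets, 62 controls left out, with group and array set as terms. Array sets come from hierarchical clustering on 45 spike-in probe sets. Adding 16 understates changes of dim probe sets. Genes were named from GEO's platform annotation (41091 probe sets with 1 gene, 1801 with several, 11721 not listed), of which 41037 matched a RefSeq table by Entrez ID. Of 75 member genes 67 had a RefSeq promoter entry. The fit was tested on simulated data.

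Named members are those past the threshold, the 3 brightest MRPL and MRPS probe sets, the 8 highest and 8 lowest changes among brighter probe sets, the 4 genes with the widest opposite changes, a list with known roles and those in the authors' table. MRPS28, MRPL46, MRPS11, MRPS22, SARS2, TUFM, MTIF3, TSFM, GADD45GIP1, RPL37, COX7A2L, ATP5IF1 and the second MRPS12 and MRPS25 probe sets were named after their values were seen. The members, lists and the array set block were chosen with earlier results of these data known. Alternatives were no block, the replicate number as a block, quantile normalization, median centring, other pseudocounts, a filter on dim probe sets, a variance trend, each array set alone, each array left out, a threshold of 0.01 and other summaries of genes. The number of arrays limits the precision.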

Additional observations from a re-analysis of the deposited data

Results flagged for a closer look

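Among 35 groups of 4 CTCF arrays checked, 2 held an array far from the others by Dixon's test, where chance gives about 1 in 20. MRPS18B on 217408_at had 3738 in CTCF array 1, with 3327 as the nearest of the other CTCF arrays, a gap of 0.90 of the group's range. CTCF on 202521_at had 1614 in CTCF array 2, with 1332 as the nearest, a gap of 0.93 of the range.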

How the results depend on the processing

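The median change of the members, 0.24 as reported, was 0.19 to 0.38 over the alternatives run, and above the median of all probe sets in each where that was computed. The count of members that rose, 1 as reported, was 0 without the block, 0 with a pseudocount of 1, 0 in the larger array set alone and 0 at a threshold of 0.01. It was 2 after quantile normalization (MRPL28 added), 3 after median centring (MRPL28 and MRPL19) and 3 with a pseudocount of 64, where 0.938%, 0.967% and 1.32% of all rose. It was 4 of 28639 probe sets with a mean of at least 32, where 3.21% of all probe sets rose, and 11 with a variance trend and robust variances, where 1.82% of all rose. Leaving out each array gave 0 to 8, with 8 without CTCF array 1, where 0.586% of all rose, and 0 without any other array, and no member fell in any of these fits. Over all probe sets, 294 rose and 723 fell as deposited, against 512 and 695 after quantile normalization and 528 and 915 after median centring. The replicate block in place of the array set gave 0 members that rose. The arrays share only a number there: deviations from the group means correlated at -0.68 for replicate 1 and 0.70 for replicate 2. Of 541 alternative values of 34 named probe sets, 518 kept their sign and 23 did not, none of these for a called probe set. These were MRPL19 232071_at (0.15 without the block, 0.29 with the replicate block, 0.06 after quantile normalization, 0.03 after median centring, -0.08 to 0.06 leaving out arrays), MRPS27 (0.03, 0.18 and 0 under the first 3 of these, 0.04 in the larger set, -0.21 to 0.04 leaving out arrays) and MRPS12 213840_s_at (0.03 without the block, 0.26 with the replicate block, 0.15 in the larger set, -0.46 to 0.15 leaving out arrays). They also include MRPL30 243887_at (0.24 with the replicate block), MRPS33 (0.01 after quantile normalization, -0.11 to 0.02 leaving out arrays) and MRPL43 230026_at (0.13 in the larger set, -0.53 to 0.13 leaving out arrays). Dropping CTCF array 4 or empty vector array 1 under the block gives the fit of the larger set alone. The cause was not tested.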

Other observations

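Probe sets shared with another gene were not members and gave these values. The one for MRPS24 and its readthrough with URGCP (224948_at) had 3350, 3976, 3850 and 3556 in CTCF arrays 1 to 4, against 3380 and 3202 in empty vector arrays 1 and 2, a log2 change of 0.16 ± 0.13. That for MRPL51 and SPTLC1 had 0.32 ± 0.14, and that for MRPL53 and CCDC142 had -0.11 ± 0.17. The antisense RNA MRPL20-AS1 had 448, 476, 389 and 298 in the CTCF arrays, against 205 and 314 in the empty vector arrays (0.48 ± 0.13, limma adjusted p = 0.141), while the brightest MRPL20 probe set had 0.49 ± 0.14 (limma adjusted p = 0.151).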
